A study of Homo sapiens with 2 samples.

Results

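The tumour necrosis factor (TNF) superfamily genes described here are those whose array probes carry a single gene symbol starting with TNFSF (ligands) or TNFRSF (receptors), leaving out TNFSF10 and the receptors TNFRSF10A to TNFRSF10D. The rule took 31 probes for 25 genes, out of 30968 probes and 18447 named genes on the array. One of these symbols, TNFSF5IP1, is an old name of PSMG2, a proteasome assembly chaperone, and is no superfamily gene. That left 29 probes for 24 superfamily genes, 9 ligands and 15 receptors. All RNA came from HaCaT, a human keratinocyte line that became immortal spontaneously in culture. Exposed cells were kept in 0.5 µg/ml arsenic trioxide through passage 22, and passage control cells were subcultured equally often without arsenic. For each group the design has 4 technical RNA preparations on 3 arrays apiece, but the files give a single combined intensity and a single error per probe, so replicates could not be compared. Since exposed and control cells were 1 culture line each, an effect of arsenic and a chance divergence of the lines cannot be told apart.

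Ligands of this superfamily are mostly membrane proteins that act as trimers, and many can be shed from the cell surface. Their receptors carry cysteine-rich domains outside the cell. Inside it, they recruit TRAF adaptor proteins to activate NF-kB and MAP kinases, or use a death domain to start cell death signalling. Many pairs are best known from T and B cells, while keratinocytes are known to respond to TNF through TNFR1 and to express some costimulatory ligands. The keratinocyte markers KRT5, SFN, KRT6A and TP63 were detected in both groups, with KRT5 at an intensity of 30404 in exposed cells, against 40026 in passage control cells. The leukocyte markers PTPRC (CD45) and CD3E were detected in neither group, and PTPRC read 18.5 in exposed cells, against 23.6 in passage control cells. CD3D, a T cell gene outside the marker list, was detected in both groups. Its mean intensity over both was 2581 (log2 ratio -0.23, adjusted p = 0.999). The monocyte markers CD14 and CD68 were detected in both groups, and CD14 fell (log2 ratio -0.70 ± 0.18), while CD68 lay above 0 without passing (0.49 ± 0.23, adjusted p = 0.649). Summed over PTPRC, CD3E, CD14 and CD68, the intensity as deposited was 922 in exposed cells, against 1556 in passage control cells. CD14 made up 545 of that sum in exposed cells, against 1190 in passage control cells. The sum over the keratinocyte markers was also lower as deposited, at 48545 in exposed cells, against 63168 in passage control cells. Such sums add probes whose levels are not comparable, so they do not measure how many cells of a type were present. Relative to the median probe, as defined below, the keratinocyte markers lay near 0 and none passed the test used below. Their log2 ratios were 0.03 for KRT5, 0.12 for SFN, -0.11 for KRT6A and -0.06 for TP63. The part of these marker differences in the results below was not tested. Of markers of other skin cells, VWF (endothelium) and MLANA (melanocytes) were detected in neither group. CDH5, PMEL, COL1A1 and PDGFRB were detected in both, and none of them passed the test used below. COL1A2 was detected in exposed cells alone, at 63.3 in exposed cells, against 73.9 in passage control cells, and did not pass either. In such bulk RNA, fewer cells that express a gene and less of its RNA per cell cannot be told apart.

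Of the 24 superfamily genes, 13 were detected in exposed cells, against 12 in passage control cells, and all 12 of these were detected in both. A probe counted as detected when its deposited detection p-value was below 0.05. By probes, 14 of 29 (48.3%) were detected in exposed cells, against 33.4% of all probes, and 13 of 29 (44.8%) in passage control cells, against 33.1% of all probes. Both groups detected the 4 ligands TNFSF9, TNFSF12, TNFSF13B and TNFSF18 and the 8 receptors TNFRSF1A, TNFRSF4, TNFRSF11A, TNFRSF11B, TNFRSF13B, TNFRSF14, TNFRSF18 and TNFRSF21. TNFRSF19 was detected in exposed cells alone. The other 11 genes, 5 ligands and 6 receptors, were detected in neither group.

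**Figure D1:**
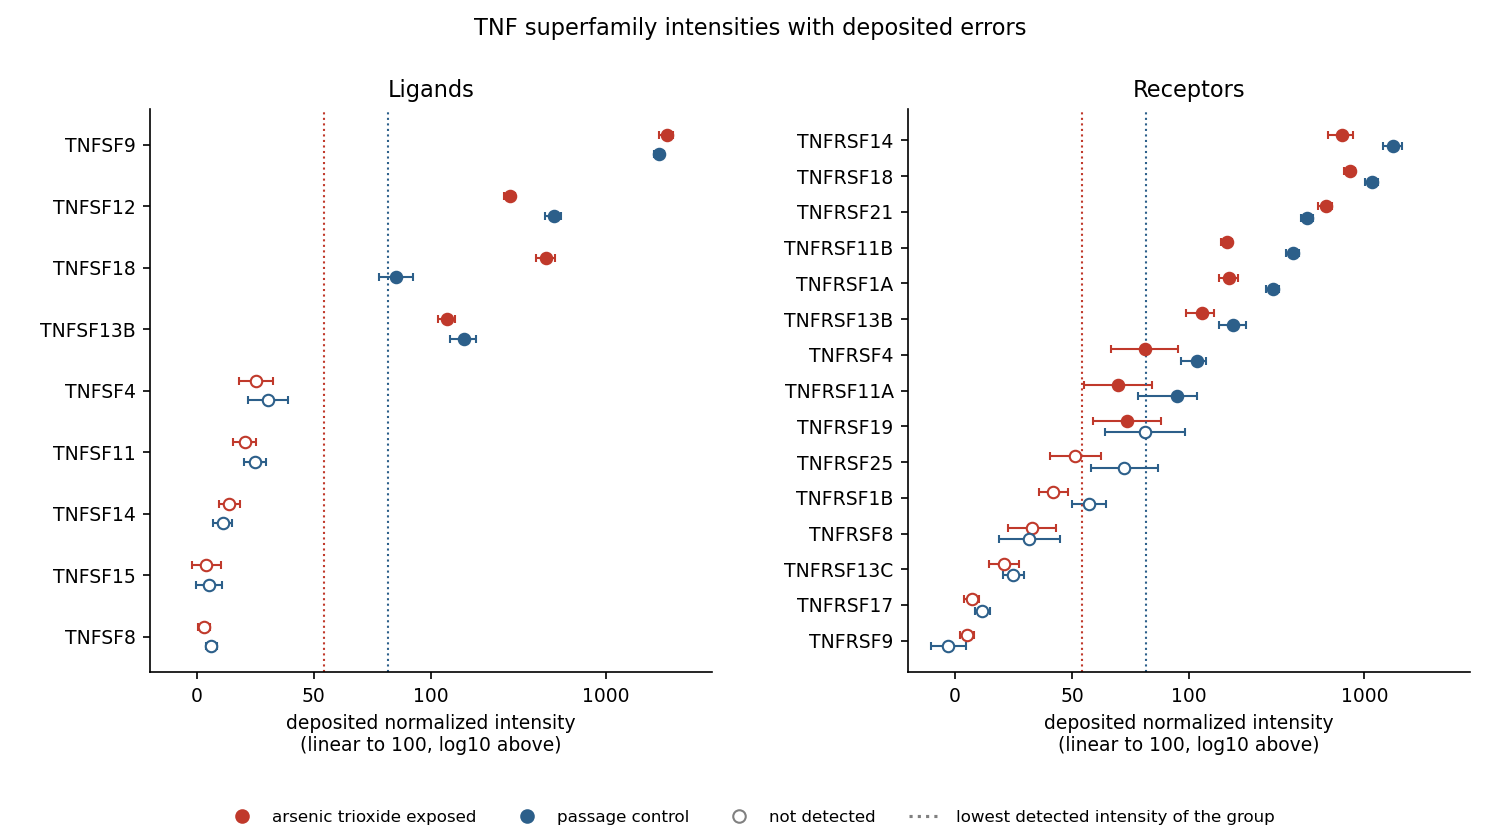
Deposited normalized intensity (horizontal axis, linear to 100 and log10 above) of the probe that stands for each TNF superfamily gene, with bars for the deposited error, in exposed cells (red) and passage control cells (blue). Filled points were detected and open points were not, and dotted lines mark the lowest detected intensity of each group, 54.4 in exposed cells, against 81.7 in passage control cells. TNFSF18 stands at 455 in exposed cells, against 85.0 in passage control cells, the largest ratio among the detected genes, and levels of different probes are not comparable.

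Among these genes, the ligands TNFSF18 and TNFSF9 and the receptor TNFRSF21 rose in exposed cells, and the soluble receptor TNFRSF11B fell. Sizes are log2 ratios of exposed over passage control intensity, minus the median of that ratio over all probes detected in both groups. That median was -0.43, so exposed intensities were 1.35-fold lower at the median probe. After an intensity, ± gives the deposited error, and after a log2 ratio the error propagated from both intensities. Neither is a standard deviation. Calls took the p-values of the authors' deposited table, with Benjamini-Hochberg adjustment across 7680 genes and a limit of 0.05. In these terms 4 of 13 superfamily genes (30.8%) were called, against 5.68% of all genes tested. Higher calls numbered 3, against 3.11% of all genes, and lower calls 1, against 2.57%. TNFSF18 was given beforehand as the marker of this gene group, and the members were chosen with earlier results of these data known. The shares of members, here and below, include TNFSF18 and are no independent evidence of an enrichment. The test behind the deposited p-values is not given in the sources used here, and they can reflect no more than how the RNA preparations of a single line varied.

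The 12 genes detected in both groups had log2 ratios from -0.82 for TNFRSF11B to 2.85 for TNFSF18, with a median of -0.02, beside 0.005 over all genes measured. Of these genes 5 lay above 0 and 7 below, or 3 above and 9 below without subtracting the median. After exposed intensities were scaled by 1.35, the intensities of 7 of the 12 genes (58.3%) differed by more than the sum of their errors, against 28.7% of all genes detected in both groups. Besides the 4 called genes, these were TNFSF12, TNFRSF1A and TNFRSF14. The median propagated error of the 12 log2 ratios was 0.22, close to the 0.20 over all genes detected in both groups.

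**Figure D2:**
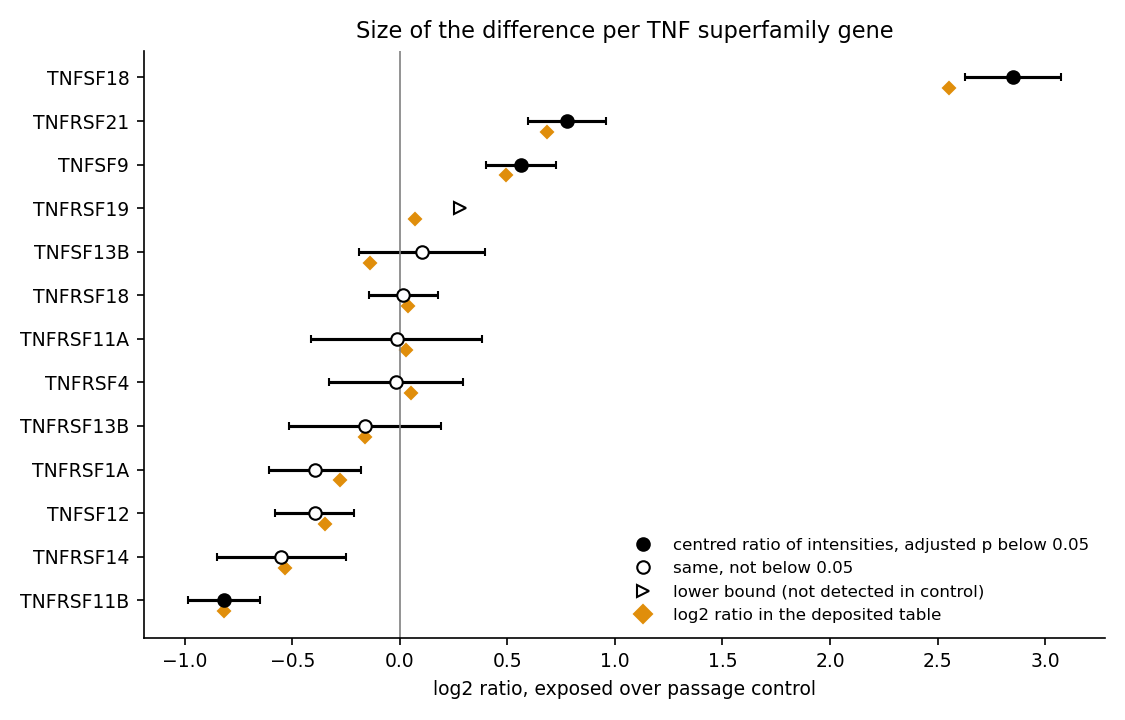
Log2 ratio of exposed over passage control cells (horizontal axis) for the 13 measured TNF superfamily genes, as the centred ratio of intensities with its propagated error (circles, filled where the adjusted p was below 0.05, a triangle where only a lower bound could be given) and as given on the log2 scale in the authors' deposited table (diamonds). TNFSF18, TNFRSF21 and TNFSF9 lie above 0 and TNFRSF11B below 0 on both measures, and the sign differs between the measures for TNFSF13B, TNFRSF11A and TNFRSF4, all within 1 error of 0.

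TNFSF18 encodes the ligand of the receptor GITR, which costimulates T cells. It read 455 ± 58.6 in exposed cells, against 85.0 ± 7.24 in passage control cells. The detection p-values were 8.68e-13 in exposed cells, against 0.0289 in passage control cells, so the gene was clearly above background with arsenic and barely so without it. The passage control value lay 3.31 above the lowest intensity of any detected probe in that group, 81.7. The log2 ratio was 2.85 ± 0.22, or 7.22-fold higher, and 2.55 in the authors' deposited table. With the exposed value lowered and the passage control value raised by their errors, the rise was still 5.79-fold. The deposited p-value, adjusted over all genes, was 4.74e-20. By size the rise stood in place 2 of 7690 measured genes.

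TNFRSF18 encodes GITR, the receptor for that ligand, and was detected in both groups. It read 827 ± 60.2 in exposed cells, against 1102 ± 93.6 in passage control cells. Its log2 ratio was 0.02 ± 0.16 (adjusted p = 0.999), and 0.04 in the authors' deposited table. Both members of the pair were thus detected in both groups, and the ligand alone was called.

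**Figure D3:**
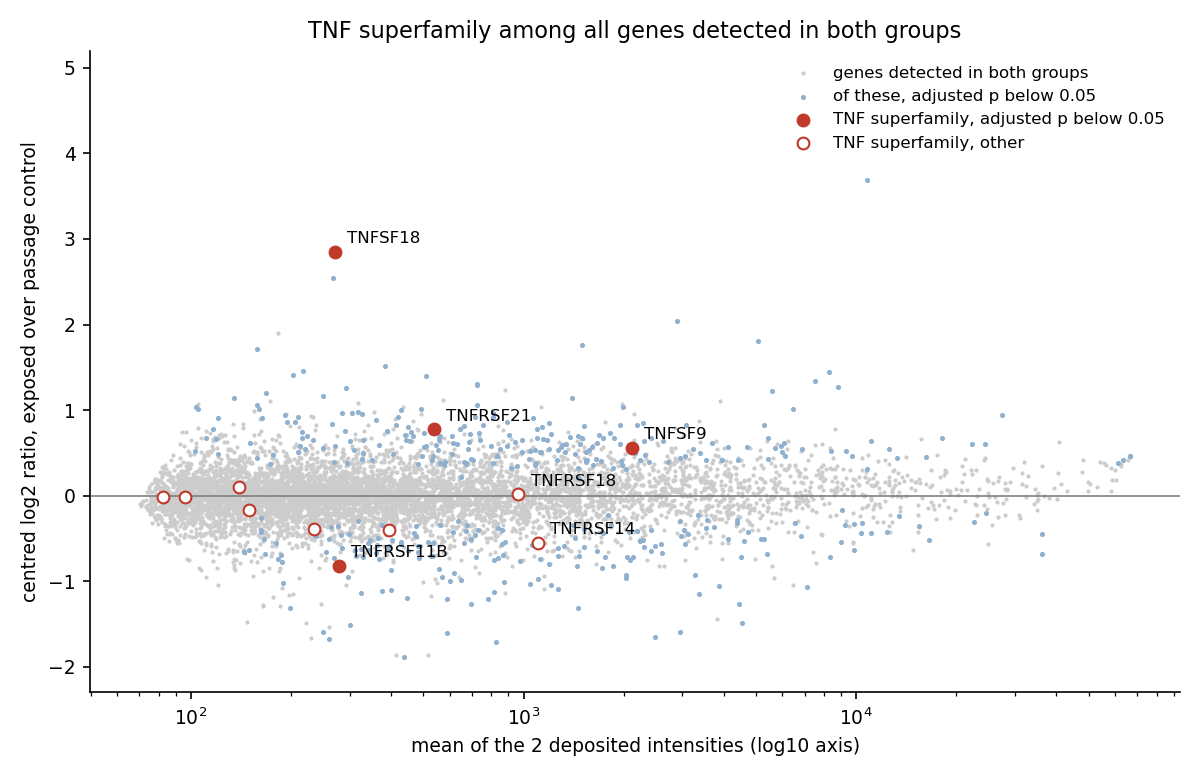
Centred log2 ratio of exposed over passage control cells (vertical axis) against the mean of both deposited intensities (horizontal axis, log10) for genes detected in both groups, with called genes in blue and TNF superfamily genes in red, filled where called. TNFSF18 lies at 2.85, far above the bulk of genes of similar intensity, while its receptor TNFRSF18 lies at 0.02.

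TNFSF9 encodes CD137 ligand, a costimulator of T cells that also signals back into the cell that carries it. It read 2210 ± 202 in exposed cells, against 2015 ± 135 in passage control cells. The intensities as deposited differed by 1.10-fold, within the sum of their errors, and the rise is one relative to the median probe. Its log2 ratio was 0.56 ± 0.16, or 1.48-fold higher, and 0.49 in the authors' deposited table (adjusted p = 3.25e-04). The gene of its receptor, TNFRSF9, was not detected. That probe read 5.23 ± 2.99 in exposed cells, against -2.91 ± 7.45 in passage control cells.

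TNFRSF21 encodes DR6, a receptor with a death domain. It read 601 ± 56.2 in exposed cells, against 472 ± 39.0 in passage control cells, and so was the higher in exposed cells also as deposited, by 1.27-fold. The log2 ratio was 0.78 ± 0.18, or 1.71-fold higher, and 0.69 in the authors' deposited table (adjusted p = 0.0288). This adjusted p lay nearest to the limit among the 4 called genes.

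The promoters of the 3 genes that rose are printed to show what sequence lies before each start site, since no probe sequence was used here. Each is the stretch of 250 bases before the start of the gene in RefSeq (GRCh38.p14), 5′ to 3′ on the gene's strand, with motif matches in capitals. TNFSF18 lies at chr1:173050942-173051191 and TNFRSF21 at chr6:47309906-47310155, both on the minus strand, and TNFSF9 at chr19:6530776-6531025 on the plus strand.
TNFSF18: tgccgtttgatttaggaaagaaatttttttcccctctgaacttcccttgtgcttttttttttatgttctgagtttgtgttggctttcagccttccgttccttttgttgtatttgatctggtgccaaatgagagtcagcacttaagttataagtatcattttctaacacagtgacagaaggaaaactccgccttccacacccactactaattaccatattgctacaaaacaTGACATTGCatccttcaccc
TNFRSF21: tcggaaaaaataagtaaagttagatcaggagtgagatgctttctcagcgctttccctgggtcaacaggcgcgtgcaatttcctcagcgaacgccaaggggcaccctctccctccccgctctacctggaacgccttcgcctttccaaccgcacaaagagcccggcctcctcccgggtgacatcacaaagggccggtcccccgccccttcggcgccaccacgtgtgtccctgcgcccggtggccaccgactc
TNFSF9: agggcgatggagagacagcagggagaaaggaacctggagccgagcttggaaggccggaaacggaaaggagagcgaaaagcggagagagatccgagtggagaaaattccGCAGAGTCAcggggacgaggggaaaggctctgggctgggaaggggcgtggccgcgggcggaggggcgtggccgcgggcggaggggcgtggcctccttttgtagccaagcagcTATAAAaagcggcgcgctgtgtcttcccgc

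Matches to 5 motifs were sought in these windows. TNFSF18 and TNFSF9 each held 1 match to the core letters TGACNNNGC of the antioxidant response element, which 10.9% of all 35116 promoter windows of the same length held on either strand. TNFSF9 also held the TATA box letters TATAAA on the gene's strand, as did 6.80% of the windows. None of the 3 windows matched the NF-kB motif (9.96% of windows), the AP-1 letters TGANTCA (6.57%) or the amino acid response element letters TGATGNAA (3.14%), each searched on both strands. A match describes letters in the window and is no site, and TNFRSF21 held none of these motifs.

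TNFRSF11B encodes osteoprotegerin, a secreted decoy receptor that binds the ligand RANKL and keeps it from its receptor RANK. It read 165 ± 12.3 in exposed cells, against 391 ± 35.4 in passage control cells, well apart and clearly detected in both. The log2 ratio was -0.82 ± 0.17, or 1.76-fold lower, and -0.81 in the authors' deposited table (adjusted p = 0.00106). The RANKL gene TNFSF11 was not detected, at 20.4 in exposed cells, against 24.8 in passage control cells. TNFRSF11A, which encodes RANK, read 69.7 ± 14.7 in exposed cells, against 94.8 ± 16.7 in passage control cells. Both lay close to the detection limit, with detection p-values of 0.0293 in exposed cells, against 0.0374 in passage control cells, and the log2 ratio was -0.01 ± 0.40.

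Of the receptors that did not pass, TNFRSF14 was the farthest from 0. It encodes HVEM, a receptor for the ligand LIGHT, and read 743 ± 123 in exposed cells, against 1465 ± 183 in passage control cells. Its log2 ratio was -0.55 ± 0.30, with -0.53 and a p-value of 0.0358 in the authors' deposited table, or 0.304 once adjusted over all genes. The gene of the ligand LIGHT, TNFSF14, was not detected, at 13.9 in exposed cells, against 11.2 in passage control cells. TNFRSF1A encodes TNFR1, the death domain receptor through which TNF acts on most cells, and read 169 ± 20.5 in exposed cells, against 300 ± 25.3 in passage control cells. Its log2 ratio was -0.40 ± 0.21 (adjusted p = 0.764). The other TNF receptor gene, TNFRSF1B, had 2 probes and neither was detected, the brighter one reading 42.0 in exposed cells, against 57.3 in passage control cells. 

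Probes labelled TNFSF12, the gene of the ligand TWEAK, carried the gene identifier and transcript accessions that RefSeq assigns to TNFSF13, its neighbour on chromosome 17 and the gene of the ligand APRIL. Which of these neighbours they measure is therefore not settled. The brighter probe read 283 ± 20.5 in exposed cells, against 502 ± 52.5 in passage control cells, and the other read 179 ± 12.9 in exposed cells, against 286 ± 20.9 in passage control cells. Both lay below 0, with log2 ratios of -0.40 ± 0.18 and -0.24 ± 0.15, and the brighter one did not pass (adjusted p = 0.528). 

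In the group of B cell survival factors, TNFSF13B, the gene of BAFF, read 124 ± 13.6 in exposed cells, against 155 ± 26.7 in passage control cells, with a log2 ratio of 0.10 ± 0.29. TNFRSF13B, the gene of the BAFF and APRIL receptor TACI, had 3 probes. The brightest read 119 ± 20.1 in exposed cells, against 179 ± 31.6 in passage control cells (log2 ratio -0.16 ± 0.35), and the other 2 were not detected. None of the 3 carried a gene identifier that could be checked. The genes of the other BAFF receptors, TNFRSF13C and TNFRSF17 (BCMA), were not detected. TNFRSF13C read 20.8 in exposed cells, against 24.9 in passage control cells, and TNFRSF17 read 7.12 in exposed cells, against 11.6 in passage control cells.

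TNFRSF4 encodes OX40, another T cell costimulatory receptor, and read 81.0 ± 14.2 in exposed cells, against 111 ± 14.1 in passage control cells, with a log2 ratio of -0.02 ± 0.31. Its ligand gene TNFSF4 was not detected, at 25.2 in exposed cells, against 30.4 in passage control cells. TNFRSF19 encodes the receptor TROY and crossed the detection limit in exposed cells alone, with 73.5 ± 14.7 in exposed cells, against 81.2 ± 17.2 in passage control cells. The detection p-values were 0.0167 in exposed cells, against 0.135 in passage control cells. As deposited its intensity was not higher in exposed cells, and the values overlapped within their errors. Relative to the median probe it stood 1.21-fold above the lowest detected passage control intensity, a bound that leaves out the errors of both values. It did not pass (adjusted p = 0.999), and the authors' deposited table gave a smaller 0.07 on the log2 scale.

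The remaining genes lay at background in both groups. CD30, encoded by TNFRSF8, read 32.9 in exposed cells, against 31.7 in passage control cells, and its ligand gene TNFSF8 read 3.01 in exposed cells, against 6.21 in passage control cells. DR3, the death domain receptor encoded by TNFRSF25, had a brighter probe at 51.4 in exposed cells, against 72.4 in passage control cells. Its ligand gene TNFSF15, which encodes TL1A, read 4.13 in exposed cells, against 5.25 in passage control cells. The 11 undetected genes spanned, over all their probes, 0.109 to 51.4 in exposed cells, against -4.78 to 72.4 in passage control cells, and their lowest detection p-values were 0.159 in exposed cells, against 0.222 in passage control cells. These values say that the probes did not exceed background, and not that the transcripts were absent.

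By ligand and receptor, and only for pairs within the symbol rule, the arrays detected both genes for TNFSF18 with TNFRSF18. TNFSF18 was barely detected in passage control cells. Both genes were also detected for TNFSF13B with TNFRSF13B, the latter by its brightest probe alone. The ligand alone was detected for TNFSF9 with TNFRSF9 and for TNFSF13B with its other receptors TNFRSF13C and TNFRSF17. The receptor alone was detected for TNFRSF4 with TNFSF4, for TNFRSF11A and the decoy TNFRSF11B with TNFSF11, and for TNFRSF14 with TNFSF14. Neither gene was detected for TNFRSF8 with TNFSF8 or for TNFRSF25 with TNFSF15.

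Several members are next to each other in the genome, with 0 protein-coding genes between them in the RefSeq annotation of GRCh38.p14. A gene undetected in both groups could not be called, so the lack of a call for such a neighbour carries no information. TNFSF18, which rose, and TNFSF4, which was not detected, are neighbours on chromosome 1. TNFRSF18 and TNFRSF4 are neighbours elsewhere on chromosome 1, and neither passed, with log2 ratios near 0 for both. The neighbours TNFSF15 and TNFSF8 on chromosome 9, and TNFRSF8 and TNFRSF1B on chromosome 1, were all undetected. On chromosome 19, TNFSF9, which rose, is followed by CD70 and TNFSF14. CD70, a superfamily ligand gene outside the symbol rule, read 2676 ± 312 in exposed cells, against 4087 ± 384 in passage control cells, with a log2 ratio of -0.18 ± 0.22 (adjusted p = 0.890). Among the neighbours of called genes given here, CD70 alone was detected and so could be called.

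Superfamily ligands that go by other symbols had 7 genes with a probe, of which 4 were detected in both groups, and 2 of these rose, where 3.11% of all genes tested were called higher. TNF read 250 ± 23.3 in exposed cells, against 214 ± 18.4 in passage control cells, with a log2 ratio of 0.65 ± 0.18 (adjusted p = 0.0145). As deposited, the TNF intensities differed by less than the sum of their errors. Without subtracting the median the log2 ratio was 0.22, so the rise is mainly one relative to the median probe. LTB, which encodes lymphotoxin beta, the membrane anchor of a lymphotoxin complex, read 190 ± 19.2 in exposed cells, against 137 ± 17.4 in passage control cells. Its log2 ratio was 0.90 ± 0.23, or 1.87-fold higher, and 0.67 in the authors' deposited table (adjusted p = 0.0164). CD70 and FASLG (0.08 ± 0.14) did not pass, and LTA, CD40LG and EDA were not detected. The list's median log2 ratio was 0.37. Of 8 receptor genes under other symbols 4 were detected. None passed by the adjusted p, or by the unadjusted p of the authors' deposited table (0 below 0.05). The detected receptors were CD40 (0.17 ± 0.26), LTBR (-0.15 ± 0.26), NGFR (-0.01 ± 0.12) and EDA2R (-0.11 ± 0.25), with a list median of -0.06. FAS, CD27, EDAR and RELT were not detected.

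**Figure D4:**
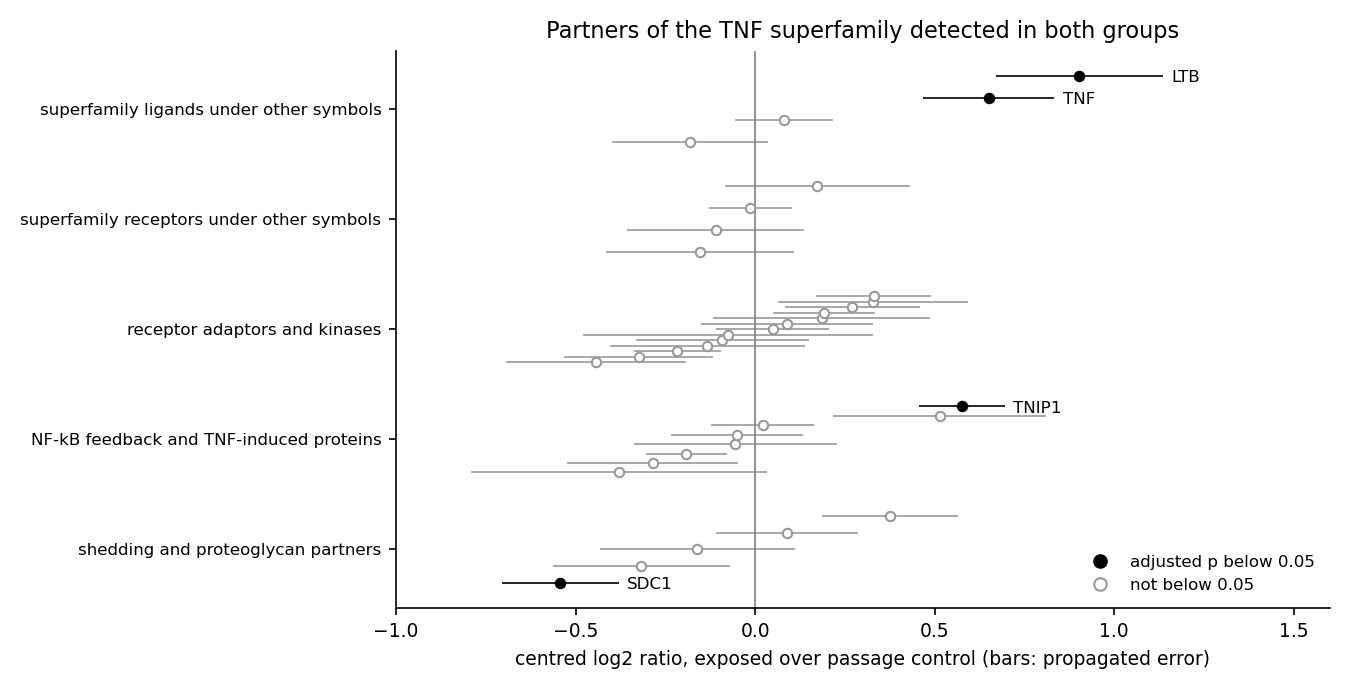
Centred log2 ratio of exposed over passage control cells (horizontal axis) for genes of 5 lists of TNF superfamily partners detected in both groups, with bars for the propagated error and filled points where the adjusted p was below 0.05. LTB, TNF and TNIP1 lie above 0 and SDC1 below 0 among the called genes. None of the 13 adaptors and kinases was called, where 5.68% of all genes tested were called.

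Inside the cell, none of 13 measured adaptors and kinases of 20 passed, where 5.68% of all genes tested were called. At that share, a count of 0 among so few genes does not set them apart. Their log2 ratios ran from -0.44 for TRAF5 to 0.33 for TRAF3, with a median of 0.05. Before Benjamini-Hochberg adjustment, 2 of the 13 had a deposited p-value below 0.05, against 13.6% of all genes tested. The smallest adjusted p-values were 0.249 for TRADD, the adaptor of TNFR1 (-0.22 ± 0.12), 0.368 for FADD, which links death domains to caspases (0.33 ± 0.26), 0.671 for TRAF2 (0.27 ± 0.19) and 0.780 for TANK (0.19 ± 0.14). Of 8 measured NF-kB feedback and TNF-induced genes 1 rose, none fell and 7 did not pass, with a median of -0.05, where 3.11% of all genes were called higher and 2.57% lower. Before adjustment, 3 of the 8 had a deposited p-value below 0.05, against 13.6% of all genes. The one that rose was TNIP1, which encodes a partner of the NF-kB inhibitor A20. It read 937 ± 58.3 in exposed cells, against 846 ± 45.6 in passage control cells, with a log2 ratio of 0.58 ± 0.12 (adjusted p = 0.00281). As deposited, the TNIP1 intensities differed by less than the sum of their errors. Without subtracting the median the log2 ratio was 0.15, so this rise too is mainly one relative to the median probe. TNFAIP3, the gene of A20 itself, stood at a log2 ratio of 0.51 ± 0.30 (adjusted p = 0.256). Like TNIP1 and TNFAIP3, CYLD had a deposited p-value below 0.05 before adjustment. It lay on the other side of 0, at -0.19 ± 0.11 (adjusted p = 0.224). NFKBIA, the gene of the inhibitor IkB alpha and a common NF-kB target, had a log2 ratio of -0.38 ± 0.41.

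Among 5 measured genes of ligand shedding and proteoglycan partners SDC1 fell and 4 did not pass, with a median of -0.16, where 2.57% of all genes were called lower. SDC1 encodes syndecan 1, a heparan sulphate proteoglycan of epithelia. Its brighter probe read 6082 ± 547 in exposed cells, against 11929 ± 802 in passage control cells, with a log2 ratio of -0.54 ± 0.16 (adjusted p = 0.00535). A second SDC1 probe disagreed, at 0.06 on the log2 scale in the authors' deposited table. The shedding protease genes ADAM17 (0.09 ± 0.20) and ADAM10 (0.38 ± 0.19) did not pass.

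PSMG2, taken by the rule through its old symbol, had 2 probes detected in both groups. The brighter read 1173 ± 127 in exposed cells, against 1948 ± 111 in passage control cells, with a log2 ratio of -0.30 ± 0.18, and the other had -0.12 ± 0.14. The brighter probe lay just outside the limit (adjusted p = 0.0596).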

How the data were processed

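Per the labels' protocols, amplified RNA carrying amino-allyl UTP was conjugated with Cy5. Scanner, software, normalization and genome build: not given in the sources used here. The authors deposited, per probe and group, a normalized intensity, its error in the same unit and a detection p-value, and for the comparison a log2 ratio and a p-value, per the file headers. The deposited value tables per sample held these same intensities (largest difference 5.00e-07). The members and lists were chosen with earlier results of these data known.

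A symbol repeated within a probe counted once, and the RefSeq gene table (GRCh38.p14) gave current symbols by gene identifier. Of several probes for a gene, the one brightest on average over both groups was used. A gene was measured when its probe was detected in both groups, or in one alone with a bound on that side after centring, the other group being set to its own value or its lowest detected intensity (54.4 in exposed, 81.7 in passage control cells), whichever was higher. Of 7690 measured genes 7680 had a deposited p-value. With 1 value per group no test was computed from intensities, and the planned limma fit was not run. The number of arrays limits the precision. Every member was named, and of each list the called genes or those with the smallest adjusted p. CD3D, CD70, CYLD, FASLG, NFKBIA, TNFAIP3, TRAF3 and TRAF5 and the shedding proteases were named beyond that rule, after their values were seen. One marker gene of the marker lists is not reported here. Centring and adjustment were tested on simulated data. The p-values there came from the simulated ratios and errors, so the deposited p-values were not tested by it. Python 3.11.15, pandas 2.3.3 and numpy 2.4.6 were used.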

Additional observations from a re-analysis of the deposited data

How the results depend on the processing

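The counts of 3 member genes called higher and 1 lower were the same without centring, with quantile normalization, with each group centred on its own median, with an offset of 32, with a detection limit of 0.01, with p-values adjusted over measured probes, with the authors' deposited log2 ratio and without PSMG2, several of these added after the data were examined. The deposited p-values are fixed under the other scalings, offset and ratio, so there a call could change only in its direction, and the equal counts say nothing about the p-values. With genes of above-median intensity only, 2 were called lower, because PSMG2 passed (adjusted p = 0.0374) when fewer genes were tested. A limit of 1.5-fold left 2 called higher, without TNFSF9. Over all settings tried the log2 ratio ranged from 2.42 to 2.87 for TNFSF18, from 0.35 to 0.80 for TNFRSF21, from 0.13 to 0.58 for TNFSF9 and from -1.25 to -0.73 for TNFRSF11B, the value nearest 0 without centring for the 3 that rose. Without centring, every measured member outside the 4 called genes that was detected in both groups lay below 0. At a detection limit of 0.01, exposed cells had 12 detected member genes and passage control cells 11, where the limit of 0.05 gave 14 in exposed and 13 in passage control cells, PSMG2 included, and TNFSF18 then had only a lower bound. No probe that names several genes named a member. No paired analysis was possible because the deposited columns hold 1 combined value per group, and no replicate could be left out for the same reason.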

Other observations

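The authors' deposited table gives a log2 ratio and p-value for some probes that did not pass its detection p-value in either group, 7 of 15 such superfamily probes among them. These values were used in no comparison above. The brighter TNFRSF25 probe had a log2 ratio of -0.15 and a p-value of 0.0444 in the authors' deposited table, before any adjustment. TNFRSF13C had a log2 ratio of 0.81 with a p-value of 0.737 there, and the dimmest TNFRSF13B probe had 0.69 with 0.0825 in the authors' deposited table.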
